A study of Homo sapiens with 5 samples.

Results

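The stretch described here is the end of the long arm of chromosome 5 in MCF10A, a line of human breast epithelial cells that is immortal but does not form tumours. Its members are all hotspots, meaning regions called for local enrichment of ATAC-seq reads, on chromosome 5 whose midpoint lies beyond 120 Mb in the hg38 build. They number 7890 of the 181723 hotspots in the list. The stretch runs to the end of the chromosome at 181.5 Mb and holds 61.5 Mb of known sequence.

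ATAC-seq uses the Tn5 transposase to insert sequencing adapters into open DNA, and the study applied it to map regulatory regions in a breast cell line in which the effects of risk variants could be placed. There is 1 group, MCF10A cells at baseline, kept in medium that held 5% horse serum. The medium further held 20 ng/ml of EGF and 0.5 µg/ml of hydrocortisone, together with 100 ng/ml of cholera toxin and 10 µg/ml of insulin. The 5 replicates were pooled before calling, so no error over replicates can be given for any value. How deeply they were sequenced is not known from the list. Each hotspot has a start, an end and a score from the authors' run of the calling program, whose meaning is not stated in the sources used here. More copies of a stretch of DNA and more accessible DNA per copy cannot be told apart in this list. The label was checked by hotspots within 1000 bp of a transcription start site (TSS), which were present at 6 of 8 markers of basal mammary epithelium, all but TP63 and KRT14, and at 0 of 6 markers of blood, liver and neurons. Over all autosomal protein-coding genes 74.5% had such a hotspot, so the count of basal markers is at the background.

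Open chromatin marks promoters, where transcription starts, and distal enhancers and insulators, where sequence-specific factors displace nucleosomes. The distal long arm of chromosome 5 carries the type 2 cytokine genes, the clustered protocadherins, which encode cell adhesion proteins of neurons, a cluster of GABA receptor genes, and the gene of the glucocorticoid receptor (NR3C1), the target of hydrocortisone. Enhancers of MCF10A cells are rich in sites of AP-1, the dimers of FOS and JUN proteins that act downstream of EGF. CTCF binds insulators and the anchors of chromatin loops, and Alu elements are the most abundant short repeats of primate genomes.

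The sequences below were read from hg38, on the forward strand, and show hotspots of the stretch and 1 just before it. The hotspot with the highest score, 156, lies in an intron of COL23A1, a transmembrane collagen gene, at chr5:178524485-178525726, and its central 240 bases (chr5:178524986-178525225) are shown with 1 unit of a 60-base tandem repeat in capitals. The whole hotspot holds 11 copies of this unit in which at least 90% of the bases are equal.

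COL23A1 intron: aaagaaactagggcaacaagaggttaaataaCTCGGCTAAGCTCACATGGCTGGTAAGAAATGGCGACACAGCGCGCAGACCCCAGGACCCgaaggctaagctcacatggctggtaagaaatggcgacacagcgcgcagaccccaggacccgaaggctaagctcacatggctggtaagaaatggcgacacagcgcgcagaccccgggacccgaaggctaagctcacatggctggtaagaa

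The highest score away from promoters with an AP-1 site in the central 120 bases, 38.6, was found in an intron of CYFIP2, a regulator of actin. Its central 240 bases (chr5:157390716-157390955) have the AP-1 site in capitals.

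CYFIP2 intron: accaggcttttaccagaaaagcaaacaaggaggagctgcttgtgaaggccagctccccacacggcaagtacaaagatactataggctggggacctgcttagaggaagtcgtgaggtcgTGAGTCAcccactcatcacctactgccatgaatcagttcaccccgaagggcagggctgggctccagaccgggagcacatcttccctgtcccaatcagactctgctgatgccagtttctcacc

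The highest score with a CTCF site in the central 120 bases, 18.0, was found between genes, 20.0 kb from the nearest TSS, that of MINAR2. In its central 240 bases (chr5:129767977-129768216), the first capitals are the CTCF site and the second an AP-1 site that lies outside the central 120 bases.

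MINAR2 side: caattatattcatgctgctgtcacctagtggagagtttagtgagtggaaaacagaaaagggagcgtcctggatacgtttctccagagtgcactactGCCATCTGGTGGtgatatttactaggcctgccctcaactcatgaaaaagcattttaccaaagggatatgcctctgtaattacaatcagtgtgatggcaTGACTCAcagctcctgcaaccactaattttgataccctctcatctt

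The last sequence lies before 120 Mb and is no member of the stretch, and is shown because it marks the change of density described below. This first hotspot past the change spans 166 bases (chr5:119000013-119000178), has a score of 4.54 and holds none of the motifs searched.

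First past the change: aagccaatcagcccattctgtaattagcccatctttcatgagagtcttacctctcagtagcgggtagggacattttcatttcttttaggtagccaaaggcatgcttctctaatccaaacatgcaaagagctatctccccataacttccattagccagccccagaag

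Hotspots were dense along most of the stretch. It held 128 hotspots per known Mb (95% exact Poisson interval 126 to 131), against 43.2 in the rest of chromosome 5 and 62.7 (62.4 to 63.0) on the other autosomes. These intervals cover counting error only. The density was 2.97 times that of the rest of chromosome 5 (interval of the ratio 2.87 to 3.08) and 2.05 times that of the other autosomes (2.00 to 2.09). The stretch thus held 4.34% of all hotspots on 2.09% of the known bases of the genome. Hotspots covered 5.15% of its bases, against 1.45% of the rest of chromosome 5 and 2.36% of the other autosomes. Chromosome 20 was denser still, with 139 hotspots per Mb, and the density of the chromosome 5 stretch was 0.920 times (0.893 to 0.949) that value. Among stretches of 61 Mb, the densest one of chromosome 20 had 140 hotspots per Mb and that of chromosome 5 had 129. The next, on chromosome 1, had 89.6. Chromosomes 19, 21 and 22 are too short to hold such a stretch and were not compared in this way. Over their whole length they had 109, 60.9 and 96.1 hotspots per Mb. Since the stretch was chosen with its density known, these values are descriptions and were not tested.

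In the 61 full bins of 1 Mb, the lowest count was 53, the median 135 and the highest 201. The median bin had 38.5 hotspots over the 120 bins of the rest of chromosome 5 and 55 over the 2542 bins of the other autosomes. All 61 bins lay above the median bin of the rest of chromosome 5, and 59 lay above that of the other autosomes. Bins with 100 or more hotspots made up 50 of 61 in the stretch, against 3 of 120 in the rest of chromosome 5 and 18.1% of all autosomal bins. The ranges nevertheless overlapped, since 32 of the 120 bins of the rest of chromosome 5 reached the lowest bin of the stretch. Only 2 of these 120 bins reached its median bin, and they are the first bins at the other end of the chromosome, with 159 and 144 hotspots.

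**Figure D1:**
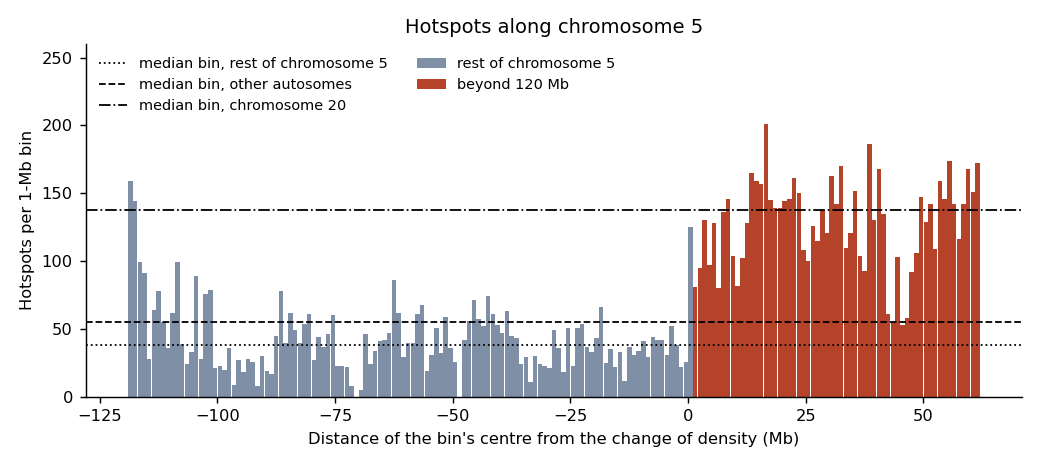
Hotspots per 1-Mb bin (y axis) along chromosome 5, by the distance of the bin's centre from the change of density in Mb (x axis), in the pooled MCF10A libraries. Bars beyond 120 Mb (red) run from 53 to 201, and the lines mark the median bin of the rest of chromosome 5 (38.5), the other autosomes (55) and chromosome 20 (138).

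The change of density did not lie at 120 Mb but 1 Mb before it. When the bins of chromosome 5 were split into 2 levels by the highest Poisson likelihood, the split fell at 119 Mb, with bins of 1 Mb, of 250 kb and of 100 kb. The density was 42.5 hotspots per Mb before this position and 128 after it, a ratio of 3.02. Splits of the same kind on the other autosomes had ratios of 1.07 to 2.84, the last at the start of chromosome 4. The gain in log-likelihood was 1957 on chromosome 5 and 420 on chromosome 4, the next largest. The 2 Mb before the position held 48 hotspots, or 24.0 per Mb (17.7 to 31.8), and the 2 Mb after it 206, or 103 per Mb (89.4 to 118). In the 10 Mb on either side the counts were 367 and 1122.

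Windows of 100 kb placed the change within a short interval. In the last 1 Mb before 119 Mb, a window held 1 to 7 hotspots, and in the first 1 Mb after it 7 to 21. The last window before held 6 hotspots and the first one after held 15. This position lies between DTWD2, a tRNA-modifying enzyme gene that ends at 118988547, and DMXL1, a gene linked to the acidification of vesicles that starts at 119037772. DTWD2 held 5 hotspots over its length. DMXL1 held 15, TNFAIP8, an inhibitor of apoptosis induced by TNF, held 20, and HSD17B4, an enzyme of peroxisomal fatty acid breakdown, held 18. Genes on both sides held strong hotspots, and the highest score was 40.6 in DTWD2, 45.6 in DMXL1, 58.4 in TNFAIP8 and 22.8 in HSD17B4. At the 120 Mb limit itself, the last 0.5 Mb outside held 65 hotspots and the first 0.5 Mb inside held 40.

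Width and score did not step at 119 Mb as the density did. In the 10 Mb on either side, the median width was 249 bp before and 271 bp after, and the median score 6.03 before and 5.61 after. Within the stretch the width varied up and down. By 10-Mb windows from 120 Mb on, the median width was 270, 329, 314, 308, 289 and 340 bp. The bins from 120 to 132 Mb had median widths of 242 to 293 bp, and those from 132 to 136 Mb had 339 to 341 bp. The bins from 143 to 149 Mb had 259 to 297 bp, those from 161 to 168 Mb 211 to 282 bp, and those from 168 Mb to the end, the short last bin included, had 313 to 356 bp.

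Many hotspots carried exactly the same score. A score was called repeated where at least 300 hotspots in the whole list carry exactly that value, and the 9 most common values formed a ladder with steps of 0.376, from 4.48 to 7.49. Repeated scores were carried by 22.3% (95% Wilson interval 21.4 to 23.2) of hotspots in the stretch, 50.2% (48.8 to 51.6) in the rest of chromosome 5, 35.4% (35.2 to 35.7) on the other autosomes and 11.7% (11.0 to 12.3) on chromosome 20. On either side of the change of density the shares were close, with 57.8% in the 10 Mb before and 53.1% in the 10 Mb after. By 10-Mb windows from 120 Mb on, the share was 54.4, 13.5, 27.0, 17.8, 33.9 and 2.48%. Per Mb, hotspots with a repeated score were 1.32 times (1.24 to 1.40) as dense as in the rest of chromosome 5, and those with another score 4.64 times (4.43 to 4.86).

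**Figure D2:**
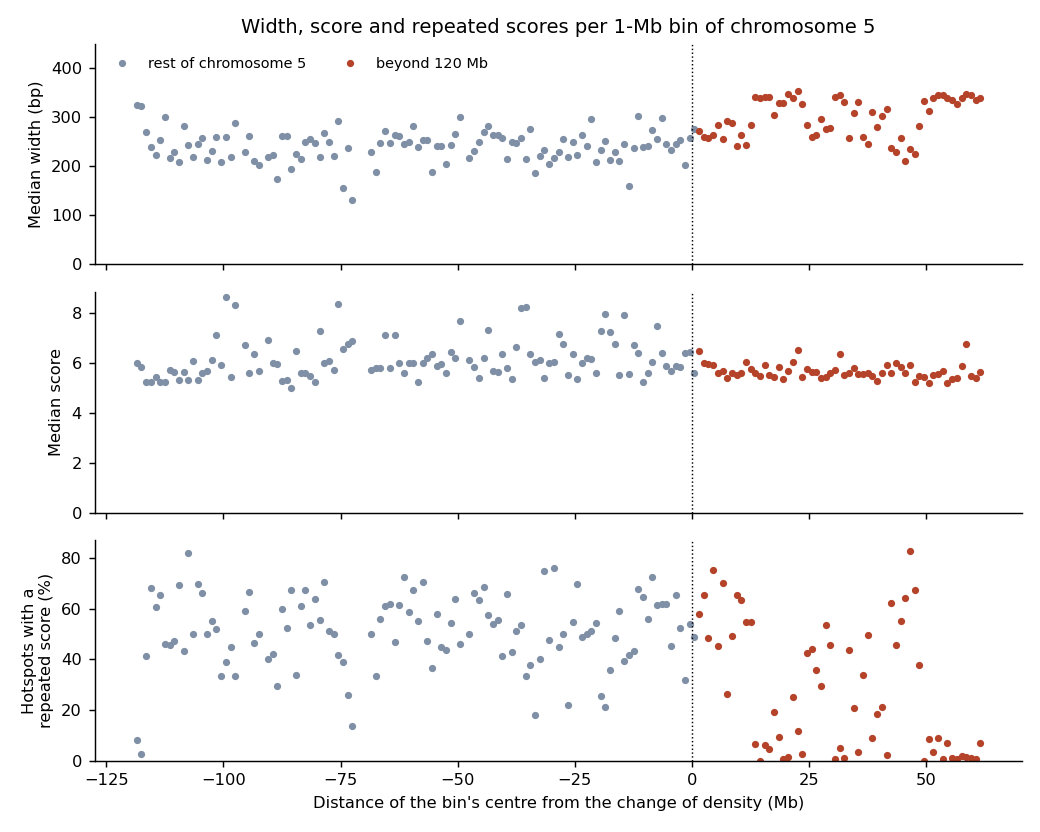
Median hotspot width in bp (top), median score (middle) and share of hotspots with a repeated score in percent (bottom) per 1-Mb bin of chromosome 5 with at least 10 hotspots, by distance from the change of density in Mb (dotted line). Red widths are 242 to 293 bp in the bins from 120 to 132 Mb and 339 to 341 bp in those from 132 to 136 Mb, where the share of repeated scores is at most 6.67%. They vary from 211 to 353 bp further on, and the short last bin is not drawn.

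The 6 windows of 10 Mb ranked 18, 2, 11, 7, 34 and 3 among 261 autosomal windows by density, in order of position from 120 Mb. The window from 130 Mb held 148 hotspots per Mb with 102 protein-coding genes, and the window from 170 Mb held 145 with 101. The window from 160 Mb was the sparsest, with 93.9 hotspots per Mb and 26 genes. The windows from 100 and 110 Mb, before the stretch, ranked 232 and 175, with 33.6 and 45.1 hotspots per Mb. The window from 120 Mb had 108 hotspots per Mb, although its 32 genes and 37.7% GC were close to the 36 genes and 38.1% GC of the window before it.

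Within the stretch, bins rich in GC and genes held more hotspots. Over the 61 bins, the hotspot count had a Pearson correlation of 0.776 with GC content, 0.493 with the number of genes and 0.818 with the median width. These bins are neighbours on 1 chromosome in 1 list, so the values are descriptions. In the same order, the correlations were 0.808, 0.565 and 0.0530 in the rest of chromosome 5 and 0.821, 0.596 and 0.749 on the other autosomes. The relation to GC and genes was thus not particular to the stretch. As a ratio of medians, the excess over the other autosomes was greatest in bins poor in genes. In the 6 bins in which no protein-coding gene starts, the median was 91.0 hotspots (53 to 130), against 22.0 in the 361 such bins of the other autosomes and 23.5 in the 26 of the rest of chromosome 5. In the 4 bins with 20 genes or more it was 154 (142 to 165) against 111. The ratio was 4.14 with no genes and 1.38 with 20 or more. As a difference of medians this order does not hold, since the bins with 5 to 9 genes had 139 against 65.0. By GC, the ratio was 3.20 in bins under 37% and 1.31 in bins of 46% or more. In the latter class the rest of chromosome 5 had 2 bins, with a median of 152 against 148 in the stretch.

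**Figure D3:**
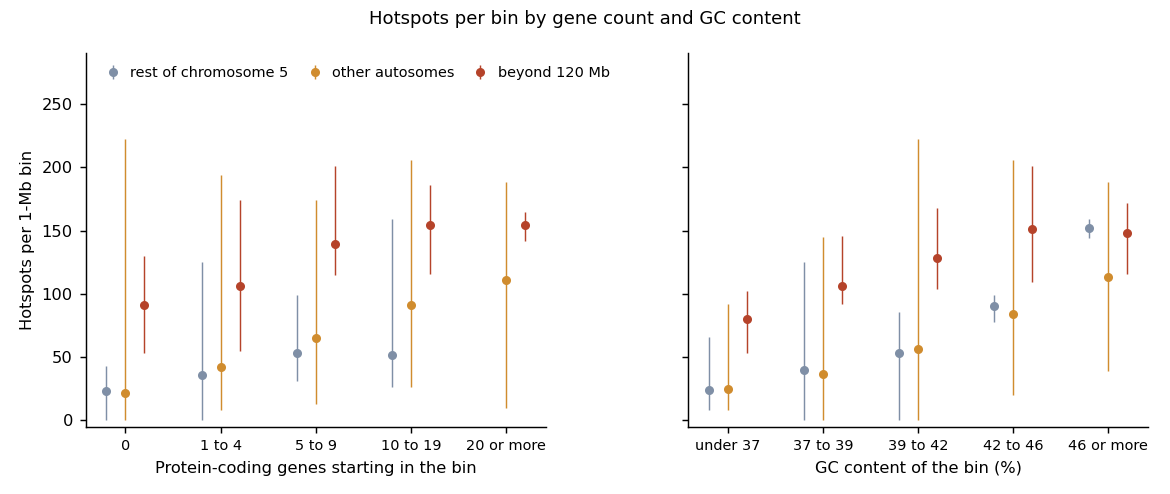
Hotspots per 1-Mb bin (y axis) for bins grouped by the number of protein-coding genes that start in them (left) and by GC content in percent (right); points are medians and lines run from the lowest to the highest bin. Bins beyond 120 Mb (red) have medians of 91.0 to 154 by gene count, while those of the other autosomes (orange) range from 22.0 to 111.

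The 3 sparsest bins lay in a gene-poor part of the stretch. The bin from 164 Mb had 53 hotspots, that from 162 Mb had 55 and that from 165 Mb had 58. No protein-coding gene starts in the bins from 164 and 165 Mb. The longest gap between neighbouring hotspots of the stretch, 145 kb (chr5:162292584-162437551), was in the same place. Gaps of 100 kb or more were 2 in the stretch, 177 in the rest of chromosome 5 and 2628 on the other autosomes, or 3.25, 148 and 102 per 100 Mb. The median gap was 4198 bp in the stretch, 10380 bp in the rest of chromosome 5 and 6886 bp on the other autosomes.

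The densest bin was that from 135 Mb with 201 hotspots. It holds the starts of 9 genes, among them PITX1, a homeobox regulator of hindlimb identity, and CXCL14, a chemokine made by epithelia. Of the 9, 8 had a promoter hotspot, where 84.3% of all genes of the stretch did. The bin from 157 Mb had 186 hotspots and 15 gene starts, including that of the metalloprotease gene ADAM19. The bin from 174 Mb had 174 hotspots although only NSG2, a neuronal vesicle protein gene, and MSX2, a homeobox gene of skull and mammary development, start in it.

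The hotspots of the stretch were wide and of low score. Their median score was 5.61 (order-statistic interval 5.60 to 5.64, quartiles 4.86 and 7.47), against 5.99 in the rest of chromosome 5 and 5.81 on the other autosomes. The 90th percentile of the score was 12.1, against 16.5 and 16.4. The median width was 318 bp (315 to 320), against 252 bp and 288 bp. Chromosome 20, the densest autosome, was alike, with a median score of 5.61, a 90th percentile of 11.9 and a median width of 329 bp. Hotspots of 200 to 400 bp were 3.79 times (3.61 to 3.98) as dense as in the rest of chromosome 5, and those under 200 bp were 1.30 times (1.21 to 1.41) as dense.

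The excess of hotspots was smallest in the class of the highest scores and greatest at middling scores. All hotspots of the list were divided into 10 classes of about equal size by score. In the lowest 7 classes, up to a score of 7.64, the density of the stretch was 2.65 to 4.42 times that of the rest of chromosome 5. Over the other autosomes it was 1.85 to 2.47 times. The lowest class itself had 2.65 and 1.85, and the fifth class 4.42 and 2.41. The eighth class had 2.58 and 1.92, and the ninth 2.06 and 1.60. In the highest class, above 16.1, the ratios were 1.84 (1.63 to 2.08) and 1.31 (1.19 to 1.43). For scores over 40, the stretch held 72 hotspots, 1.17 per Mb, or 1.63 times (1.18 to 2.26) the density of the rest of chromosome 5 and 1.40 times (1.09 to 1.77) that of the other autosomes. Thus the intervals of all 10 classes lay above 1 in both comparisons. Chromosome 20 had a similar profile, with 18.0 hotspots per Mb in the fifth class and 8.91 in the highest, against 15.1 and 8.31 in the stretch.

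**Figure D4:**
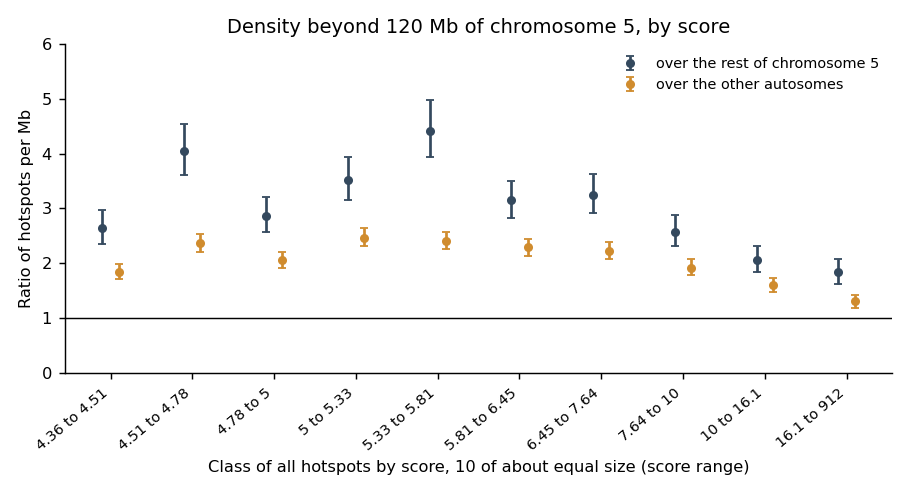
Density of hotspots beyond 120 Mb of chromosome 5 as a ratio to the rest of chromosome 5 (dark) and to the other autosomes (orange), for 10 classes of all hotspots by score (x axis, lowest to highest); bars are 95% exact intervals that cover counting error only. The ratio is 2.65 and 1.85 in the lowest class and 1.84 and 1.31 in the highest, and the line marks a ratio of 1.

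By position relative to genes, 48.2% of the hotspots of the stretch lay between genes, 39.8% in introns, 4.37% in exons and 7.60% (7.04 to 8.21) at promoters, meaning within 1000 bp of a TSS of a protein-coding gene. The promoter share was 7.35% (6.67 to 8.09) in the rest of chromosome 5 and 11.1% (11.0 to 11.3) on the other autosomes. Promoter hotspots numbered 9.76 per Mb, 1.40 times (1.29 to 1.52) the density on the other autosomes, while intronic ones were 2.21 times (2.13 to 2.29) and those between genes 2.06 times (2.00 to 2.13) as dense. The median promoter score was 9.20 in the stretch, 16.9 in the rest of chromosome 5 and 13.1 on the other autosomes. Chromosome 20 had the same median promoter score, 9.20, and a promoter share of 7.25% (6.73 to 7.81). The hotspots away from promoters lay at a median of 45.4 kb from the nearest TSS, against 39.7 kb on the other autosomes.

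Most genes of the stretch had a promoter hotspot. Of 483 protein-coding genes, 407 (84.3%, 80.7 to 87.2) had one, against the 74.5% of all autosomal genes given above. Without the 53 clustered protocadherin genes the share was 85.8% (82.2 to 88.8), and in the rest of chromosome 5 it was 78.7% (74.4 to 82.4). Taking the highest promoter hotspot of each gene, the median score was 20.1 (quartiles 8.04 and 33.9) in the stretch and 20.9 (11.3 and 30.9) on the other autosomes. When each hotspot was assigned to the nearest TSS within 100 kb, a gene of the stretch had a median of 8 hotspots, against 6 in the rest of chromosome 5 and 5 on the other autosomes.

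Genes of core cell functions had the strongest promoters among the lists described. All 16 of them had a promoter hotspot, against 84.3% of all genes of the stretch. Their scores ran from 20.9 to 58.0, with a median of 36.5. Over all genes of the stretch with such a hotspot the median was 20.1. ETF1, which releases finished proteins from the ribosome, had a score of 58.0, CANX, a chaperone of the endoplasmic reticulum, 52.6, HNRNPA0, an RNA-binding protein, 46.5, and NPM1, a nucleolar protein, 44.0. RPS14, a ribosomal protein gene, had the lowest score of the list, 20.9. These genes had 2 to 24 assigned hotspots, with a median of 8, equal to that of all genes of the stretch.

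The 10 genes of growth factor and immediate early response all had a promoter hotspot, with a median score of 25.3. Over all genes of the stretch, 84.3% had one. NR3C1, the glucocorticoid receptor, had 39.1 with 29 assigned hotspots. EGR1, an immediate early transcription factor, had 37.1, and DUSP1, a phosphatase that turns off MAP kinases, had 26.9 with 23 assigned hotspots. HBEGF, a ligand of the EGF receptor, had 23.6, and SPRY4, a feedback inhibitor of growth factor signalling, had 20.9 with 27 assigned hotspots. FGF18 and FGF1, fibroblast growth factors, had the lowest scores of this list, 16.6 and 12.5. The median of assigned hotspots was 25, against 8 for all genes of the stretch.

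The 10 genes listed as epithelial and mammary also all had a promoter hotspot, with scores of 5.34 to 44.0 and a median of 24.5. Over all genes of the stretch, 84.3% had one. SLC12A2, a chloride cotransporter of epithelia, had 44.0 and CTNNA1, the alpha-catenin of cell junctions, had 22.4 with 60 assigned hotspots. TGFBI, a matrix protein induced by TGF-beta, had 18.7, PITX1 had 18.0 and CXCL14 had 16.0, a hotspot within reach of a TSS of SLC25A48 as well. KLHL3, a ubiquitin ligase adaptor that regulates salt transport, had the lowest score, 5.34. The other members are not particular to epithelia, and several of them had high scores. CDC25C and KIF20A, genes of cell division, had 41.6 and 29.5, the latter within reach of a TSS of BRD8 too. TNIP1 had 33.6 and SMAD5 26.7. The median of the list therefore does not describe epithelial genes alone.

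Of 12 genes of the type 2 cytokine cluster and lymphocytes, 10 (83.3%) had a promoter hotspot, close to the 84.3% of all genes of the stretch. The scores fell into separate ranges. The cytokine genes IL3, CSF2, IL4 and IL13 had scores of 5.00, 4.78, 5.55 and 7.67, and IL9 had none. IL5 was listed at 34.2, through a hotspot within reach of a TSS of the DNA repair gene RAD50 too. HAVCR2, an inhibitory receptor of T cells, was listed at 50.9 through a hotspot that is also within reach of the TSS of MED7, a subunit of the Mediator complex. IRF1, an interferon-induced transcription factor, had 31.8, and CD74, the invariant chain of MHC class II, had none.

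Genes of the extracellular matrix and mesenchyme had a promoter hotspot in 6 of 8 cases, with scores of 5.51 to 18.8. LOX, which crosslinks collagen, had 18.8, FBN2, a fibrillin, 14.3, and SPARC, a matrix protein of mesenchyme, 5.51, while MEGF10 and ADAMTS2 had none. The 8 matrix and mesenchyme genes had 12 to 35 assigned hotspots each, with a median of 25.5. Of 4 receptor tyrosine kinases, CSF1R had 15.7, FGFR4 8.99 and PDGFRB 5.07, and FLT4, the VEGF receptor of lymphatic vessels, had none.

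Of 12 neuronal receptor and channel genes, 8 (66.7%) had a promoter hotspot, with scores of 4.40 to 15.7 and a median of 6.86. The share over all genes of the stretch was 84.3%, and 12 genes are few. Among genes of GABA-A receptor subunits, GABRB2 had 7.12, and GABRA6 and GABRP had none. TENM2, an adhesion protein of synapses, had a score of 8.98 and 80 assigned hotspots over a gene of 1285 kb. The median of assigned hotspots in this list was 24.5. The clustered protocadherins had a promoter hotspot at 38 of 53 genes (71.7%), with a median score of 6.74 and the highest, 39.8, at PCDHAC1.

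**Figure D5:**
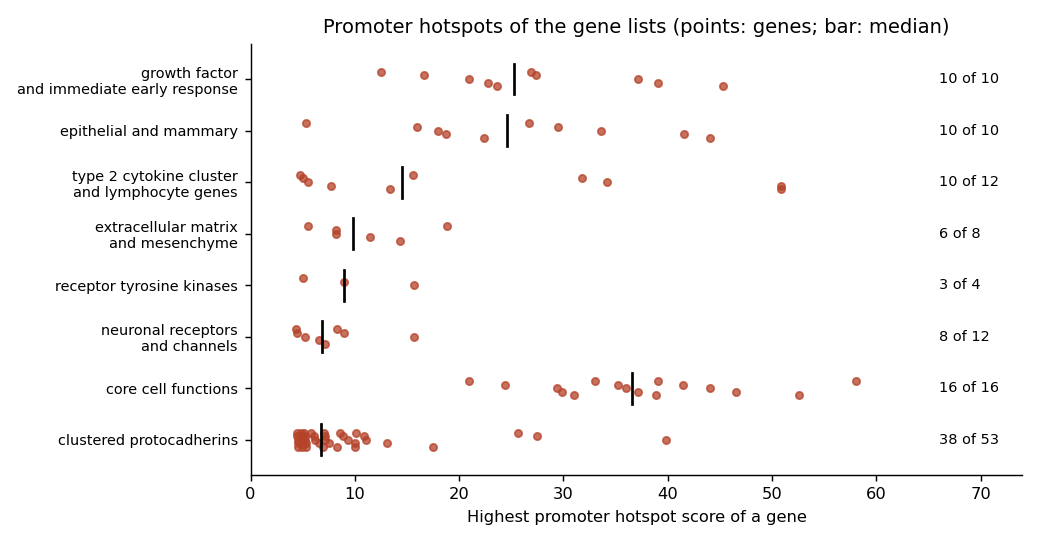
Score of the highest promoter hotspot of each gene (x axis), for the gene lists within the stretch; points are genes, black bars medians, and the numbers at the right give the genes with a promoter hotspot out of all genes of the list. The core cell functions lie between 20.9 and 58.0, and the neuronal receptors and channels between 4.40 and 15.7.

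The genes with the most assigned hotspots were TENM2 with 80, PPP2R2B, a regulatory subunit of phosphatase 2A, with 64, ARHGAP26 with 63, CTNNA1 with 60 and ATP10B with 55. They were followed by KCNIP1 with 49, FSTL4 with 48, WWC1, a regulator of the Hippo pathway, with 45, COL23A1 with 39 and SIL1 with 37. Many hotspots did not go with a strong promoter, since the promoter score was 48.4 at ARHGAP26, 35.7 at SIL1 and 29.9 at WWC1, but 4.42 at KCNIP1 and 5.73 at COL23A1.

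Of the 10 hotspots with the highest score in the stretch, 3 lay at promoters, and of the highest 100, 68 did. The 3 promoter hotspots had scores of 62.0 at G3BP1, a stress granule protein gene, and its neighbour ATOX1, 59.0 at THOC3, a subunit of an mRNA export complex, and 58.0 at ETF1. The others were led by the COL23A1 hotspot printed above. The next lay in introns of CCDC192 (123), UIMC1 (118) and MARCHF3 (107). The CCDC192 hotspot spans only 279 bp (chr5:127750469-127750747) and the MARCHF3 hotspot 182 bp (chr5:126904166-126904347).

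Some of these top hotspots consist of repeated sequence. The share of 12-base words that occur more than once within the hotspot was 56.9% at COL23A1, 69.3% at UIMC1 and 100% at THOC3, and 0% at CCDC192 and MARCHF3. At PCBD2 (score 63.6, chr5:134926370-134928611), 25.7% of the 25-base words also occur in the mitochondrial genome, whereas at the other hotspots of the top 10 this share was 0. In all, 107 of the 7890 hotspots had a share of repeated 12-base words of at least 25%, and their median score was 7.89. How many reads were placed there from other copies of these sequences was not tested.

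AP-1 sites were found in the central 120 bases of 360 of the 7890 hotspots, or 4.56% (4.12 to 5.05). Sites were searched as TGACTCA and TGAGTCA, which covers both strands, and 1.82% of all windows of this length in the stretch hold one. The share was lower than in the rest of chromosome 5 (6.63%, 5.99 to 7.34) and on the other autosomes (5.93%, 5.82 to 6.05), with intervals that do not overlap. The size of the gap depended on the score. Among the 25% of all hotspots with the highest scores, 8.02% (6.73 to 9.53) of the hotspots of the stretch had a site, against 7.71% (6.42 to 9.24) and 7.79% (7.53 to 8.05). Among the 25% just above the median score it was 5.10% (4.24 to 6.11), against 7.93% (6.60 to 9.49) and 7.14% (6.89 to 7.40), and among the 25% just below the median 2.76% (2.17 to 3.52), against 5.73% (4.53 to 7.22) and 4.69% (4.48 to 4.90). In the lowest 25% it was 3.53% (2.81 to 4.43), against 4.91% (3.86 to 6.24) and 4.12% (3.94 to 4.32), with intervals that overlap. Thus the CYFIP2 sequence stands for a class that was as frequent among strong hotspots here as elsewhere, within the intervals. Away from promoters the share was 4.77%, and at promoters 2.00% (1.15 to 3.46), close to that of all windows.

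CTCF sites, searched with a degenerate consensus of 12 bases on both strands, were found in 43 hotspots, or 0.545% (0.405 to 0.733), against 0.367% (0.235 to 0.573) in the rest of chromosome 5 and 0.769% (0.728 to 0.813) on the other autosomes. Of all windows, 0.0390% hold such a site in the stretch, 0.0229% in the rest of chromosome 5 and 0.0425% on the other autosomes. Hotspots thus held sites at 14.0, 16.0 and 18.1 times the share of all windows. The Alu piece GATTACAGG, or CCTGTAATC on the other strand, was found in 5.13% (4.67 to 5.64) of the hotspots. It was found in 207 of 5171 hotspots in the rest of chromosome 5 and in 4.48% (4.38 to 4.58) on the other autosomes. Of all windows, 3.62% hold the piece in the stretch, 2.37% in the rest of chromosome 5 and 3.59% on the other autosomes. Hotspots held it at 1.42, 1.69 and 1.25 times the share of all windows, in the same order. Relative to all windows, the stretch thus lay below the rest of chromosome 5 and above the other autosomes. The piece was a feature of weak hotspots, with 6.51% (5.51 to 7.67) in the lowest 25% of all scores and 1.10% (0.676 to 1.77) in the highest 25%. A match of letters does not show that a factor is bound.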

How the data were processed

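ATAC-seq libraries of 5 replicates of MCF10A cells, sequenced as read pairs (75 bases each), were aligned with Bowtie2 to hg38 (per the submitters' processing notes; version for these data not given in the sources used here), merged and freed of duplicates. Hotspot 4.1 was run at a false discovery rate of 0.01, with a background window of 50 kb, windows of 200 to 300 bp, a merge distance of 150 bp and a minimum size of 10 bp. The values are scores, as deposited by the authors, whose sources give no reference level for them. Mitochondrial reads were removed for coverage tracks of the same merged reads, which is not stated for the calls, and no shift of cut sites is stated. Strong local background within 50 kb and depth can both set which regions pass, and their effect on the density was not tested.

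All 181723 hotspots end within their chromosome of hg38. Genes were the 20033 protein-coding genes of GENCODE release 44, with the 78567 TSSs of their protein-coding transcripts. Densities were counted by midpoint per known base, and bins of 1 Mb with at least 90% known bases were summarised. The split of chromosome 5 left at least 10 Mb on each side. The step, motif and interval functions were tested on simulated data. Genes named are those of the lists, of the hotspots with the highest score, near the change, with the most assigned hotspots and in the densest and sparsest bins. The stretch, the lists and this rule were chosen with earlier results of these data known. Some items are not reported here. No test was run, since the replicates were pooled. Alternatives were a score filter, promoters left out, merging of hotspots under 500 bp apart, other limits, bin sizes, TSS windows and motif windows. Scripts ran in Python 3.11.15 using pandas 2.3.3, scipy 1.17.1, numpy 2.4.6 and matplotlib 3.10.9.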

Additional observations from a re-analysis of the deposited data

How the results depend on the processing

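The stretch stayed denser than the rest of chromosome 5 and than the other autosomes in every alternative of these ratios. The change of density stayed at 119 Mb in all 6 of its alternatives. A value was counted as moved when it left the interval of the value reported; 24 did not and 23 did. Relative to the rest of chromosome 5, the density ratio of 2.97 became 2.56 for scores above the median, 2.85 with a start 5 Mb later, 2.87 with one 5 Mb earlier, 3.51 by median bins and 3.56 by bases covered. Relative to the other autosomes, 2.05 became 1.87 for scores above the median, 2.13 away from promoters, 1.96 with a start 5 Mb earlier, 2.45 by median bins and 2.11 without chromosome 20. A start at 119 Mb, chosen after seeing the data, gave 3.02 and 2.05. The median score was 5.56 away from promoters and 5.65 after merging, and the median width 371 bp for scores above the median, 313 bp away from promoters and 325 bp after merging. The promoter share was 6.26% with TSS windows of 500 bp, 10.9% with 2000 bp and 11.7% for scores above the median. The share of genes with a promoter hotspot was 90.5% with 2000 bp and 71.0% for scores above the median. The AP-1 share was 11.6% over whole hotspots, 9.63% in the central 300 bp and 6.28% for scores above the median. In each of these, the wider window or the filter changes what is counted. No paired analysis was possible because the 5 replicates were pooled before calling, and for the same reason no replicate could be left out. Depth bears on which weak regions, near the lowest score of 4.36, could be called, and it is unknown here.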
